A study of Mus musculus with 8 samples.

Results

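Pancreatic acinar cells make and secrete the digestive enzymes, and 33 mouse genes of these cells were followed through RNA-seq of pancreatic islets from 5-week-old C57BL/6 mice. The 33 genes were chosen by name, among the 55414 gene identifiers that each table of read counts lists: 7 trypsinogens, 7 elastases and chymotrypsins, 2 carboxypeptidases, 6 lipases with their cofactor, a ribonuclease and a kallikrein, 4 granule and surface proteins, 1 trypsin inhibitor and 4 transcription factors. There were 4 libraries labelled TG, with the genotype Ins2 cre(+/-) ATF4 TG(+/-), and 4 labelled WT, with the genotype Ins2 cre(-/-) ATF4 TG(+/-). Both groups, the one labelled WT included, thus carried the ATF4 transgene, and the cre driven by the insulin gene Ins2, which is active in beta cells, was present only in the mice labelled TG. The labels do not say whether each library came from its own animal, so p-values measure the spread between these libraries, which may in part be technical.

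Islets are small clusters of hormone-secreting cells that lie inside the exocrine pancreas, and islet preparations can hold acinar tissue. Acinar cells store their enzymes as inactive precursors in zymogen granules and release them into the duct. Their enzyme genes are switched on together by the PTF1 complex, in which PTF1A pairs with a common E-protein and with RBPJL and binds an E-box followed by a TC-box, and by NR5A2 and BHLHA15 (also called MIST1).

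Depth was similar across libraries, between 16521087 and 22499999 reads counted to genes. A count of 3 reads was worth 0.133 to 0.182 CPM of gene counts. All other levels are CPM on effective library sizes, that is, after TMM scaling. The labelled tissue was checked with Ins2, which read 30654 to 37691 CPM in the libraries labelled TG, against 60848 to 82409 CPM in those labelled WT. Atf4 read 271.9, 278, 234 and 259 CPM in the libraries labelled TG, against 378, 326, 351 and 353 CPM in those labelled WT. Atf4 was therefore lower in the libraries labelled TG (log2 fold change -0.43, SE 0.0855, edgeR adjusted p 0.00226), which goes against their label as transgenic. Whether reads of the transgene were counted to this gene was not tested, and every direction given here is between libraries as they are labelled.

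The promoters of 4 of the 33 genes are shown with the letters that PTF1 and NR5A2 are known to bind. Whether these letters bear on the levels in these libraries was not tested. Each is the stretch of 250 bases before the gene's start in RefSeq (GRCm38.p6), on the gene's own strand. Cela1 lies at chr15:100687921-100688170 on the minus strand, Ctrb1 at chr8:111691011-111691260 on the minus strand, Cel at chr2:28563404-28563653 on the minus strand and Bhlha15 at chr5:144190036-144190285 on the plus strand. In Cela1, an elastase, and Ctrb1, chymotrypsinogen B, the capitals mark an E-box CANNTG and a TC-box TTTCCC with 4 bases between them. In Cel, the bile-salt-stimulated lipase, and Bhlha15 they mark each CACCTG, read as CAGGTG where it lies on the other strand, and in Cel also TTTCCC (read as GGGAAA) and the NR5A2 motif CAAGGTCA (read as TGACCTTG).
Cela1: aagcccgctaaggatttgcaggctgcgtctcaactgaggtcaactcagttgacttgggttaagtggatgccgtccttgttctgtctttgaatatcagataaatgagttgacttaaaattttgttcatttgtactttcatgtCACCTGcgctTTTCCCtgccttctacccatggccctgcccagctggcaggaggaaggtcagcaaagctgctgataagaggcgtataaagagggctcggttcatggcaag
Ctrb1: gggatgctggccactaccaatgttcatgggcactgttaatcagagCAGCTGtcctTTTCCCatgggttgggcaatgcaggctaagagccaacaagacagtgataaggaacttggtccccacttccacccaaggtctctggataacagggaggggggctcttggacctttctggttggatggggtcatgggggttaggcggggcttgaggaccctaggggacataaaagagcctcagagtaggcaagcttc
Cel: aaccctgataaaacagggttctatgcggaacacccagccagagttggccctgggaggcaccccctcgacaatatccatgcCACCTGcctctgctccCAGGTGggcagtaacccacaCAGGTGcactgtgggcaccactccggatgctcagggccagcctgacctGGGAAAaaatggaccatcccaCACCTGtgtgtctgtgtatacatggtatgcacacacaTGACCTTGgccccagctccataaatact
Bhlha15: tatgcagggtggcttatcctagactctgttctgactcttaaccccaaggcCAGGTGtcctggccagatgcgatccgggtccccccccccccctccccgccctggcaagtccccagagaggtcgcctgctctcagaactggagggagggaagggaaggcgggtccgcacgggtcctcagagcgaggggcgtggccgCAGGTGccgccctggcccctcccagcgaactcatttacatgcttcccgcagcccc

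Promoters were matched for 27 of the 33 genes, which gave 28 promoters, and both strands were searched. The joined motif, CANNTG with 4 bases between it and TTTCCC, which overlaps by construction with TTTCCC and can hold CACCTG or CAGCTG, was in 4 of 28 acinar promoters (14.3%), against 0.0791% of the 32851 promoters in the table. These 4 were the promoters of Cela1, where it lay 109 to 94 bases before the start, Ctrb1 (205 to 190 bases), Gm5771 (86 to 71 bases) and Prss1 (106 to 91 bases). Gm5771 and Prss1 are trypsinogen copies that share sequence, so they need not be separate instances. With 5 or 6 bases between the boxes the motif was in 0 of the 28, against 0.0913% and 0.100% of all promoters. The E-box CACCTG was in 17 of 28 acinar promoters (60.7%), against 17.2% of all, and CAGCTG was in 5 (17.9%), against 13.0%. TTTCCC was in 9 (32.1%), against 21.9% of all. CAAGGTCA was in the promoters of Cel and Klk1 (7.14%), against 1.33% of all. The motifs searched are those of factors already known to switch on acinar enzyme genes. The shares are therefore no independent result, and no test was run on them. A match is a description of these letters and not a binding site.

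The 33 genes together took 6.06%, 1.91%, 1.03% and 1.42% of gene counts in the 4 libraries labelled TG, in the order of their replicate numbers. In the 4 libraries labelled WT they took 1.67%, 0.865%, 1.77% and 0.192%. TG1 was the highest library and WT4 the lowest, 31.6 times apart, and the other 6 lay between 0.865% and 1.91% with the groups mixed. The mean was 2.61% ± 2.33 in libraries labelled TG and 1.12% ± 0.743 in those labelled WT (SD, n = 4 each), a ratio of 2.32. The range inside each group was wider than the distance between the means, and the highest library was 5.87 times the lowest within TG and 9.25 times within WT. Counting error was small beside it, with Wilson 95% intervals of 6.05% to 6.07% in TG1 and 0.189% to 0.194% in WT4, which cover counting error only. The ratio of means was 1.29 without TG1, 1.81 without WT4 and 1.01 without both, an alternative chosen after the data were seen. In bulk islets, more acinar cells and more acinar RNA per cell cannot be told apart.

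**Figure D1:**
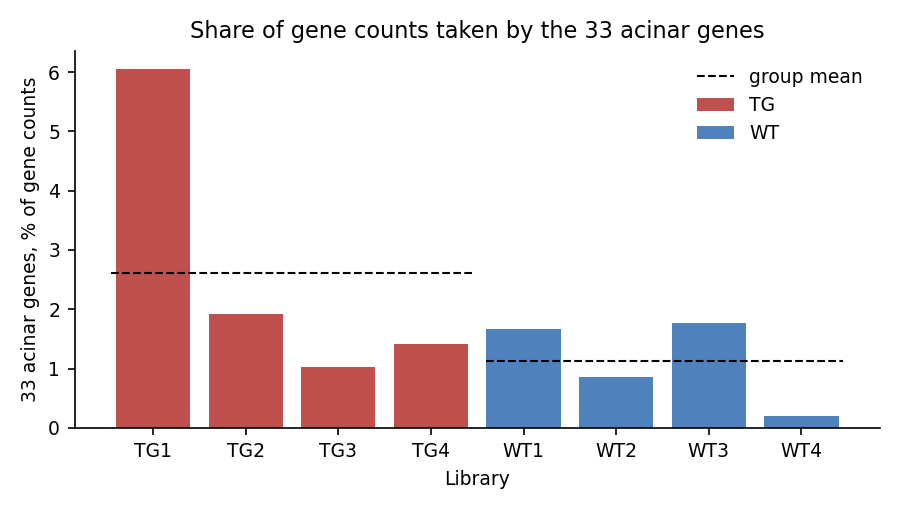
Share of all gene counts (%) taken by the 33 acinar genes in each library, with TG libraries left of WT libraries and dashed lines at the group means of 2.61% and 1.12%. TG1 stands at 6.06% and WT4 at 0.192%, and the other 6 bars overlap between groups.

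The lipases digest dietary fat and held 34.1% of all acinar counts over the 8 libraries. Pnlip (ENSMUSG00000046008), the main pancreatic triglyceride lipase, was the most abundant acinar gene, at 10204, 3013, 1489.8 and 2171 CPM in TG1 to TG4, against 3029, 1422, 2806 and 290.0 CPM in WT1 to WT4. TG1 stood apart at the top and WT4 at the bottom, WT1 lay above 3 of the 4 libraries labelled TG, and the groups overlapped (log2 fold change 1.16, SE 0.916, edgeR adjusted p 0.461). Pnliprp1 (ENSMUSG00000042179), a related protein with little lipase activity, read 4293, 1613, 808 and 1345 CPM in TG, against 1432, 785, 1765 and 188 CPM in WT. Cel (ENSMUSG00000026818), which hydrolyses cholesterol and other esters, read 4552, 1299, 673 and 1004 CPM in TG, against 1319, 643, 1458 and 147 CPM in WT. TG1 was the highest and WT4 the lowest library for both genes, and the other 6 were interleaved. Their log2 fold changes were 0.95 (SE 0.812, adjusted p 0.498) for Pnliprp1 and 1.08 (SE 0.905, adjusted p 0.49) for Cel. The remaining lipase genes were Pnliprp2, the colipase gene Clps and the phospholipase gene Pla2g1b, at log2 fold changes of 1.02, 1.15 and 1.14, with the groups overlapping for each.

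Elastases and chymotrypsins cut dietary protein after small and bulky residues, and held 35.2% of acinar counts. Ctrb1 (ENSMUSG00000031957) read 7028, 2255, 1061 and 1412 CPM in TG, against 1913, 989, 1870.0 and 207 CPM in WT. Cela1 (ENSMUSG00000023031) read 6336, 2139, 1048 and 1627 CPM in TG, against 2063, 1069, 2105 and 192 CPM in WT. Cela2a (ENSMUSG00000058579), another elastase, read 4914, 1504, 691 and 1074 CPM in TG, against 1510.2, 715, 1505 and 138 CPM in WT. For all 3 genes TG1 was highest and WT4 lowest, and TG3 was below WT1 and WT3. Their log2 fold changes were 1.24 for Ctrb1 (SE 0.897, edgeR adjusted p 0.417), 1.04 for Cela1 (SE 0.886, adjusted p 0.497) and 1.08 for Cela2a (SE 0.928, adjusted p 0.50). Cela3b, Ctrc and Ctrl had log2 fold changes of 1.15, 1.11 and 1.0, and also overlapped between groups. Cela3a was too low to test, at 20, 10, 6 and 7 reads in TG, against 4, 6, 5 and 6 reads in WT, and 34.2% of its 50-base stretches also occur in another gene, mostly Cela3b.

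The carboxypeptidases, which trim amino acids from the C-terminal end, held 15.2% of acinar counts in only 2 genes. Cpb1 (ENSMUSG00000011463), which removes basic residues, read 5424, 1752, 1037 and 1555 CPM in TG, against 1865, 813, 1891 and 194 CPM in WT. Cpa1 (ENSMUSG00000054446), which removes aromatic and aliphatic residues, read 3385, 993, 520.3 and 736 CPM in TG, against 972, 462, 978 and 115 CPM in WT. Both genes had TG1 apart at the top and WT4 at the bottom, and TG3 lay below WT1 and WT3. Neither gene was called, at log2 fold changes of 1.04 for Cpb1 (SE 0.853, edgeR adjusted p 0.48) and 1.16 for Cpa1 (SE 0.881, adjusted p 0.444).

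Trypsinogens are the precursors of trypsin, which activates the other zymogens, and their 7 genes held 8.65% of acinar counts. Try4 (ENSMUSG00000054106) read 2111, 716, 372 and 362 CPM in TG, against 515, 234, 528 and 54.3 CPM in WT. Prss2 (ENSMUSG00000057163) read 1858, 605, 340.2 and 399.5 CPM in TG, against 582, 246, 624 and 68.9 CPM in WT. Both overlapped between groups, with log2 fold changes of 1.42 for Try4 (SE 0.911, edgeR adjusted p 0.356) and 1.07 for Prss2 (SE 0.869, adjusted p 0.473). Try5, Try10, Prss3 and Gm5771 had log2 fold changes of 1.43, 1.47, 1.92 and 1.99, with adjusted p between 0.224 and 0.309.

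Prss1 (ENSMUSG00000062751) was the 1 trypsinogen called of 7, where 20.1% of all genes tested were called, and its reads were few beside those of Prss2. It read 6.69, 0.978, 0.883 and 1.25 CPM in TG, against 0.531, 0.507, 0.602 and 0.611 CPM in WT, from 124, 22, 20 and 22 reads in TG against 11, 11, 13 and 10 reads in WT. The groups did not overlap, and TG1 stood far above the other 3 libraries labelled TG. Prss1 was higher in the libraries labelled TG (log2 fold change 2.11, SE 0.642, edgeR adjusted p 0.0343). Without TG1 the log2 fold change was 0.88 (adjusted p 0.310), and the call was also lost when any 1 WT library was left out (adjusted p 0.0684 to 0.101). Prss1 shares 54.9% of its 50-base stretches with other genes, Gm5771 above all, so reads of these copies may have been split or set aside and its value is uncertain. The same holds for Try4 and Try5, which share 65.6% and 47.6% of their stretches, Prss3 (66.1%), Gm5771 (55.4%) and Try10 (40.8%), while Prss2 shares 7.83% and Pnlip, Ctrb1, Cela1, Cel, Cpa1, Cpb1 and Pnliprp1 share none.

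**Figure D2:**
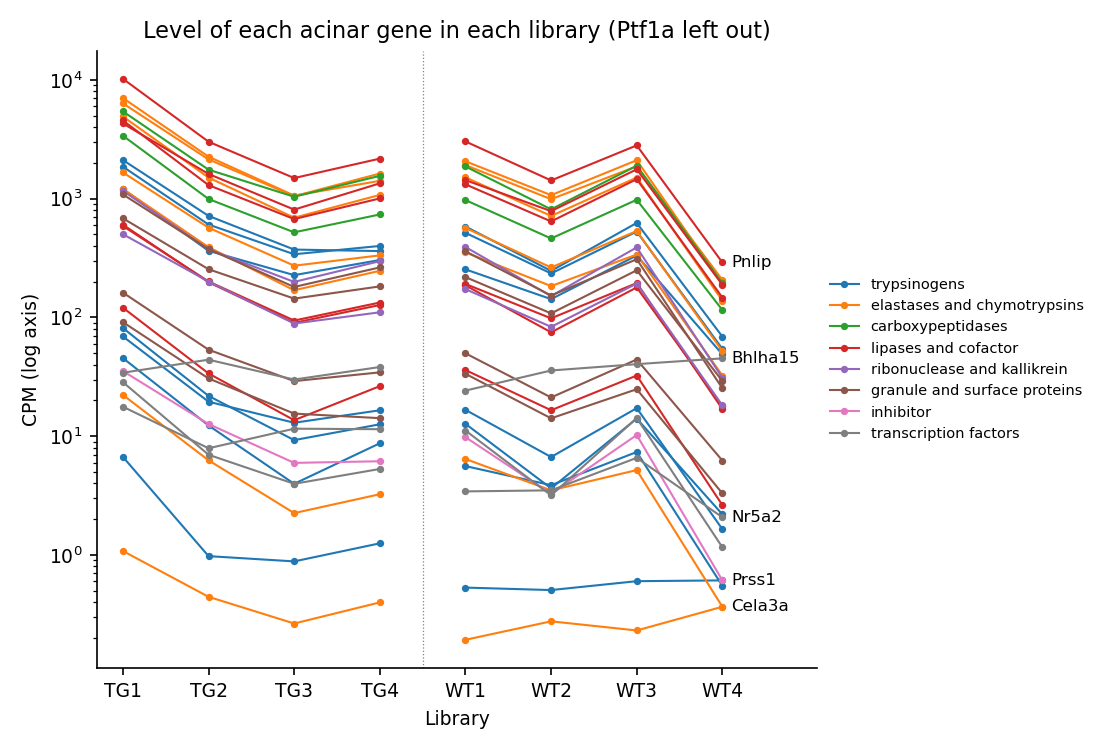
Level of each acinar gene in CPM on a log axis in the TG libraries, left of the dotted line, and the WT libraries, right of it, with 1 line per gene coloured by role. Most lines run in parallel, with a peak at TG1 and a low at WT4, and Ptf1a is left out because it is at 0 reads in 5 libraries.

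Of the 2 genes of the ribonuclease and kallikrein group, Rnase1, the pancreatic ribonuclease, read 199 to 1164 CPM in TG and 31 to 391 CPM in WT. Klk1, tissue kallikrein, read 88.8 to 502 CPM in TG and 18.1 to 193 CPM in WT. The granule and surface genes held 3.52% of acinar counts: Zg16 (zymogen granule protein 16), Gp2 (a granule membrane glycoprotein), Cuzd1 and Sycn (syncollin) had log2 fold changes of 0.99 to 1.19. The trypsin inhibitor gene Spink1 read 5.96 to 35.4 CPM in TG and 0.611 to 10.2 CPM in WT (log2 fold change 1.31, SE 0.937, edgeR adjusted p 0.41). All of these genes overlapped between groups and had TG1 as the highest library and WT4 as the lowest.

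Per kilobase of exon, Ctrb1 was the highest acinar gene in 8 of 8 libraries, with a mean level of 2382 CPM per kilobase. Pnlip was second in 8 of 8, at 1391 CPM per kilobase, although it led in CPM. Cela1 followed at 899 CPM per kilobase and ranked 3 to 5 across libraries, Cela2a at 874 (rank 3 to 6) and Try4 at 764 (rank 3 to 9), so the order of these neighbours changed between libraries. The transcription factors lay far below, at 10.4 CPM per kilobase for Bhlha15, 1.62 for Rbpjl, 1.36 for Nr5a2 and 0.042 for Ptf1a.

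The proportions among the most abundant enzymes moved far less than their total, which ranged 31.6-fold. Pnlip held 17.1%, 15.8%, 15.4% and 15.7% of acinar counts in TG, against 16.7%, 16.2%, 15.2% and 15.0% in WT, so the highest share was 1.14 times the lowest. Ctrb1 stayed between 10.1% and 11.8%, Cela1 between 9.93% and 12.2%, and Cpa1 between 5.21% and 5.97%. Cel stayed between 6.81% and 7.90%, Cela2a between 7.16% and 8.34%, Cpb1 between 9.11% and 11.2% and Prss2 between 2.81% and 3.56%. Pnliprp1 varied more, from 7.21% in TG1 to 9.72% in WT4. Try4 held 3.55%, 3.75%, 3.86% and 2.61% in TG, against 2.85%, 2.68%, 2.86% and 2.81% in WT, with 3 TG libraries above all 4 WT libraries and TG4 below them. Among the less abundant enzymes the proportions moved more. Try5 held 1.40% to 2.53% of acinar counts, so its highest share was 1.80 times its lowest, and this ratio was 2.11 for Ctrc, 2.69 for Gm5771, 3.29 for Prss3 and 10.8 for Prss1. Try10 held 0.116%, 0.102%, 0.135% and 0.119% in TG, against 0.0921%, 0.0763%, 0.0933% and 0.0853% in WT. Its share was above every WT library in each TG library, which was not tested. Try10 was the only gene of the 33 whose share did not overlap between groups, and it is named here for that reason. With 33 genes looked at and 70 arrangements of 8 libraries, a gene can separate by chance. Sequence shared with other genes also leaves the value of Try10 uncertain.

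**Figure D3:**
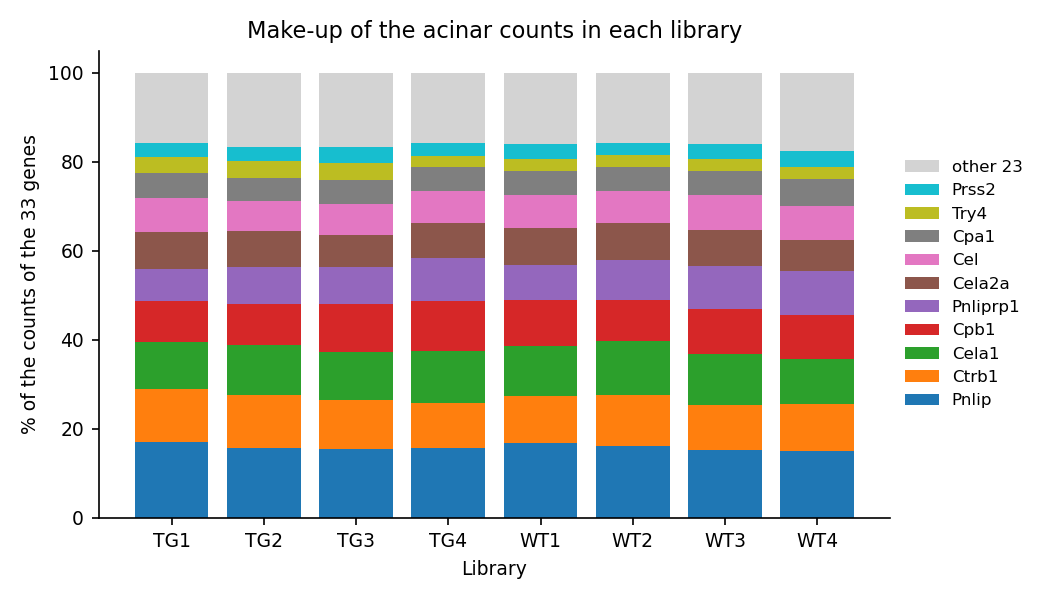
Make-up of the acinar counts in each library as percent of the counts of the 33 genes, for the 10 most abundant genes and the other 23 in grey, with TG libraries left of WT libraries. The 10 bands change little in width beside the total, Pnlip between 15.0% and 17.1%, although the acinar share of all gene counts differed 31.6-fold.

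Across the 8 libraries, the correlation of each gene's log2 level with that of the other acinar genes summed fell into a high block and 5 lower values. In 28 of the 33 genes Pearson r was between 0.937 and 0.999. It was 0.73 for Nr5a2, 0.66 for Prss1, 0.63 for Ptf1a, 0.51 for Cela3a and -0.33 for Bhlha15, and Prss1, Ptf1a and Cela3a had few reads. The division was made after the values were seen and carries no test, and the values describe 8 libraries that share their depth scaling, with TG1 and WT4 at the ends. In the 28 genes the SD of the log2 level was 1.29 to 1.55, and the SD of the log2 level relative to the other acinar genes was 0.072 to 0.524. That relative SD was 0.958 for Nr5a2, 1.05 for Prss1, 1.24 for Ptf1a, 1.25 for Cela3a and 1.53 for Bhlha15.

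Of the 33 genes, 31 passed the filter on low counts and were compared in a fit over 20509 genes. Prss1 and Nr5a2 were higher in the libraries labelled TG, 0 genes were lower and 29 were not called, so 6.45% of the tested acinar genes were called. Over all genes tested, 20.1% were called, 12.1% higher (2475 genes) and 8.06% lower (1654 genes). The acinar genes that were not called had log2 fold changes of 0.01 to 1.99 and adjusted p between 0.224 and 0.98. At an unadjusted p under 0.05 the same count of 2 was found. The groups did not overlap for 2 of the 31 acinar genes, against 22.6% of all genes tested (12.6% higher and 9.94% lower).

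The median log2 fold change of the 31 genes was 1.14, against -0.0019 over all genes tested, and the median SE was 0.899, against 0.207. All 31 log2 fold changes were positive, that of Bhlha15 only in some scalings, and as most of the genes varied together across libraries these directions are not independent. TG1 was the highest library for 32 of the 33 genes and WT4 the lowest for 29. Without TG1 the median log2 fold change of the 31 genes was 0.28, without WT4 it was 0.77, and without both it was -0.10, with 10 of 31 above 0. Without both, the log2 fold changes of Pnlip, Cela1 and Cel were -0.14, -0.14 and -0.22. These data therefore give no call of a difference in the bulk of the enzyme genes between libraries labelled TG and WT, and the SE of about 0.9 on the log2 scale leaves a wide interval around each value.

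**Figure D4:**
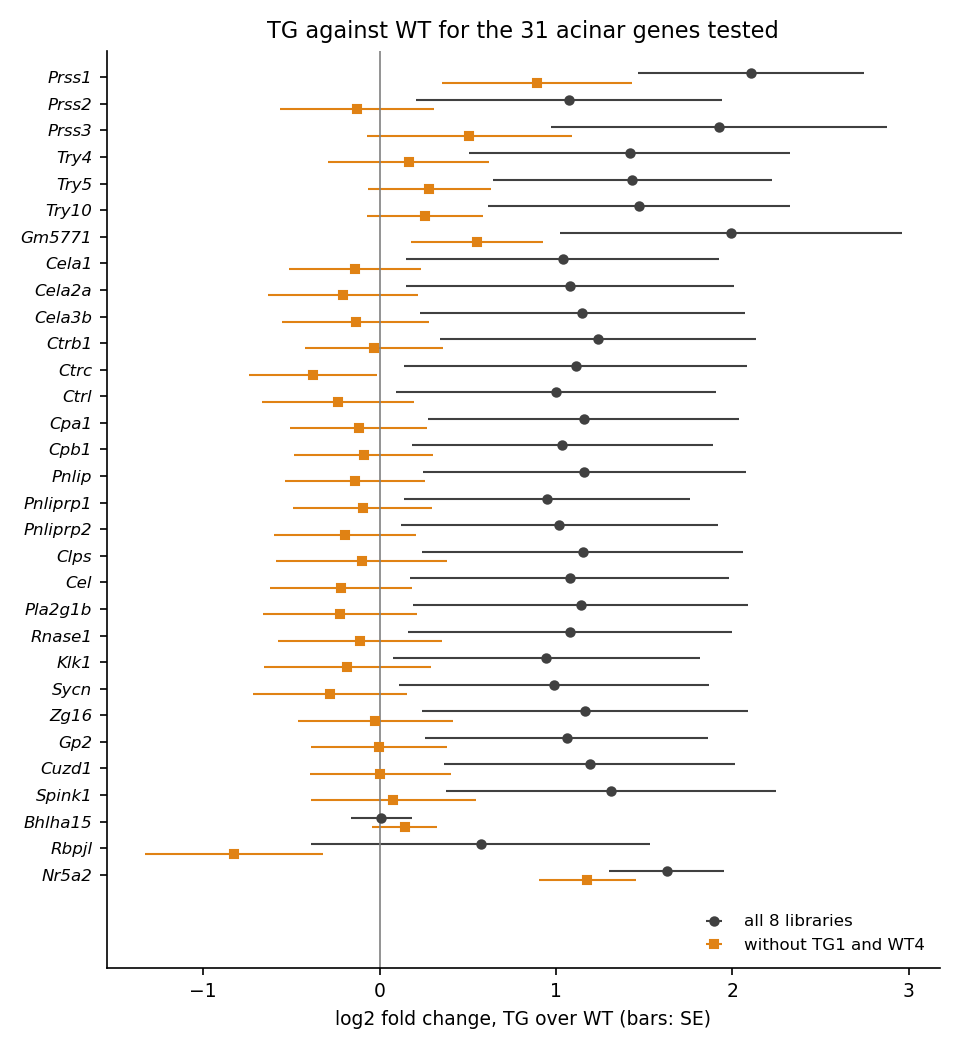
Log2 fold change of TG over WT with its SE for the 31 acinar genes tested, in all 8 libraries (circles) and without TG1 and WT4 (squares). With all libraries the median is 1.14, and without these 2 it is -0.10, while Nr5a2 stays to the right of 0 in both, at 1.63 and 1.18.

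The transcription factors of the acinar programme behaved differently from one another. Ptf1a (ENSMUSG00000026735), the part of PTF1 that pairs with a common E-protein, had 7, 1, 2 and 0 reads in TG. It had 0 reads in each of the 4 WT libraries, where a count of 0 allows up to 0.182 CPM of gene counts. It was too low to test and most libraries were at or under this limit. Rbpjl (ENSMUSG00000017007), the acinar partner of PTF1A, read 28.5, 6.98, 3.97 and 5.30 CPM in TG, against 11.2, 3.18, 14.2 and 1.16 CPM in WT. It overlapped between groups and its log2 fold change was 0.57 (SE 0.961, edgeR adjusted p 0.753), with -0.45 when TG1 was left out.

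Nr5a2 (ENSMUSG00000026398), a nuclear receptor also known as LRH-1, was higher in the libraries labelled TG. It read 17.7, 7.91, 11.6 and 11.5 CPM in TG, against 3.43, 3.5, 6.57 and 2.08 CPM in WT. Every TG library lay above every WT library. TG1 was the highest library and WT4 the lowest, as for the acinar share, but TG3, with the smallest acinar share of its group, had more Nr5a2 than TG2. The mean was 12.2 ± 4.07 CPM in TG and 3.90 ± 1.90 CPM in WT (SD, n = 4 each), with a log2 fold change of 1.63 (SE 0.325, edgeR adjusted p 0.00393). With the summed acinar level as a covariate the log2 fold change was 1.29 (SE 0.259, edgeR adjusted p 0.00297). Without both TG1 and WT4 it was 1.18 (SE 0.274, edgeR adjusted p 0.0116). Both fits were added after the data were seen. The covariate holds the acinar level alone, and whether acinar tissue or other cell types bear on this call was not tested. Nr5a2 was called in every alternative tried, at log2 fold changes of 1.18 to 1.99. Its correlation with the other acinar genes was 0.73 over the 8 libraries.

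Bhlha15 (ENSMUSG00000052271), which directs the secretory apparatus of acinar and other secretory cells, was nearly level across libraries. It read 34.2, 44.1, 30 and 38.2 CPM in TG, against 24.2, 35.7, 40.4 and 45.2 CPM in WT. WT4, the library with the fewest acinar reads, had the most Bhlha15, and the highest library was 1.87 times the lowest. The mean was 36.6 ± 5.99 CPM in TG and 36.4 ± 9.0 CPM in WT (SD, n = 4 each), and the log2 fold change of 0.01 (SE 0.175, edgeR adjusted p 0.98) changed sign with the scaling. Bhlha15 made up 0.0575% of acinar counts in TG1 and 2.34% in WT4, and its correlation with the other acinar genes was -0.33.

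**Figure D5:**
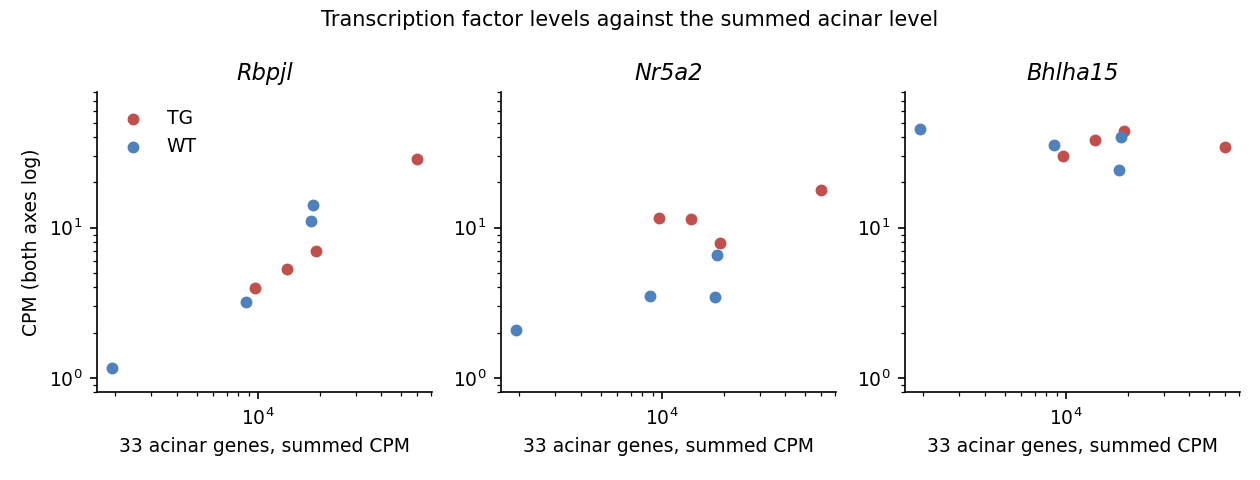
Levels of the acinar transcription factors in CPM against the summed CPM of the 33 acinar genes, both on log axes, with 1 point per library for TG and WT. Rbpjl climbs with the acinar sum, Bhlha15 stays between 24.2 and 45.2 CPM, and the 4 TG points of Nr5a2 (7.91 to 17.7 CPM) lie above the 4 WT points (2.08 to 6.57 CPM).

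A second list of 27 exocrine genes, none of them among the 33, showed the same libraries at the ends. Its summed level was 1113 to 5002 CPM in TG and 355 to 1728 CPM in WT, with TG1 highest and WT4 lowest. Of 20 genes tested, 1 was called higher and 0 lower, against 12.1% higher and 8.06% lower over all genes tested, and the median log2 fold change was 1.0. The called gene was Tmed6, a member of the p24 family of cargo carriers, at 41.5, 26.2, 22.5 and 25.9 CPM in TG, against 17.1, 10.9, 14.8 and 9.59 CPM in WT (log2 fold change 1.14, SE 0.219, edgeR adjusted p 0.00325). Every TG library lay above every WT library for Tmed6. Dmbt1, Pdia2, Serpini2, Tff2, Erp27, Cckar and Aqp12 had log2 fold changes of 1.01 to 1.40, and Amy1, Slc39a5 and Amy2b had 0.69, 0.84 and 0.99, none of them called. Rab3d, a GTPase of secretory granules, stayed between 159 and 211 CPM in all 8 libraries (log2 fold change 0.13), and Gnmt, a methyltransferase, had a log2 fold change of 0.16. The amylase copies Amy2a2, Amy2a3 and Amy2a4 were at 0 reads in every library, and their 50-base stretches all occur in another gene, so no value can be read for them.

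Among 11282 other genes averaging 5 CPM or more, the 10 whose log2 level was most like the acinar sum over the 8 libraries included Pdia2, Reg1, Tff2, Dmbt1, Serpini2, Amy2b, Reg3d, Slc39a5 and Cckar, with Pearson r from 0.999 down to 0.978. All of these named genes are also on the second exocrine list, except Reg1 and Reg3d, of the regenerating family of secreted lectins. Those on the list include Pdia2, a pancreatic protein disulfide isomerase, and Cckar, the cholecystokinin receptor. Reg1 read 2814, 904, 461 and 616 CPM in TG, against 852, 339, 844 and 79.5 CPM in WT, the same order at both ends as for Pnlip. Its log2 fold change was 1.18 (SE 0.916, edgeR adjusted p 0.452).

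Markers of other cell types were set against the same background, in which 12.1% of all genes tested were called higher and 8.06% lower. The 11 duct markers summed to 1275 to 1663 CPM in TG and 714 to 808 CPM in WT, with 8 of 10 tested called higher, among them Krt19 (log2 fold change 2.79, edgeR adjusted p 0.0317) and Spp1 (2.7, adjusted p 0.000255). The 8 endothelial markers summed to 1091 to 1159 CPM in TG and 472 to 814 CPM in WT, with 8 of 8 called higher. The 9 stromal markers summed to 3328 to 6471 CPM in TG, highest in TG1, and 832 to 2787 CPM in WT, with 5 of 9 called higher. The largest part of the TG1 sum was Col3a1, at 4450 CPM, which was not called (edgeR adjusted p 0.0715). The myeloid and lymphoid markers summed to 95.5 to 345 CPM in TG and 38.7 to 74.4 CPM in WT, with 5 of 8 tested called higher. Lyz2 alone read 274 CPM in TG2 and 189 CPM in TG3, against 56.6 CPM in TG1 and 37.1 CPM in TG4. Cd68, Cd79a and Ms4a1 were not called, at log2 fold changes of 0.55, -0.96 and 0.82. The 7 islet hormone and granule genes summed to 95198 to 129395 CPM in TG and 150183 to 178608 CPM in WT, with 4 of 7 called lower. The called genes were Ins1, Ins2, Iapp and Chga. Gcg, Ppy and Sst were not called, at log2 fold changes of 0.42, 0.14 and -0.079, so the lower sum does not describe every hormone gene. In each of these lists the groups did not overlap in the sum, unlike the acinar sum, and no list had a defining marker at 0 in every library. The part of these cell types in the calls of Nr5a2, Prss1 and Tmed6 was not tested.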

How the data were processed

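Each library's table, as deposited by the authors, holds whole-number read counts per Ensembl mouse gene without any scaling. Per the submitters' processing notes, the tools were STAR 2.7.10a and HTSeq 0.11.3 and the build was mm39. Whether counting used strand is not given in the sources read. Entries for reads outside genes (25.3% to 31.5% of each table) and ambiguous reads (3.74% to 4.36%) entered no library size and no test. The share outside genes was largest in TG1, at 31.5%, followed by WT4, at 29.5%. Whether this bears on the acinar values of these libraries was not tested. No 2 libraries of the same group agreed within sampling noise (chi-square per gene 16.9 to 56.7), and pairs across groups were not compared. Symbols came from a GENCODE M21 annotation of an earlier build, which named 52081 of 55414 identifiers and also gave exon lengths and shared 50-base stretches.

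The 33 genes and the other lists were chosen with earlier results of these data known. Genes were filtered with filterByExpr (minimum count 10), scaled by TMM and compared, TG over WT, with the two-sided robust quasi-likelihood test of edgeR 4.0.16 (R 4.3.3), fitting group alone. P-values were Benjamini-Hochberg adjusted over 20509 genes, and calls needed an adjusted p below 0.05. The procedure was tested on simulated data. CPM use effective library sizes and shares use gene counts. Values in every library are given for the 10 most abundant genes, called genes and the transcription factors. On the second exocrine list, genes averaging 5 CPM or more are named. The 10 likest genes were ranked by Pearson r of log2(CPM + 0.5). A gene that these rules select is not reported here, though it stays in the tests and sums. Alternatives were DESeq2 1.42.0, limma-voom (limma 3.58.1), other scalings and filters, a replicate block, an acinar covariate, and leaving out libraries. Leaving out both TG1 and WT4, and the covariate for single genes, were added after the data were seen.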

Additional observations from a re-analysis of the deposited data

Results flagged for a closer look

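In 7 acinar genes the library TG1 stood further from the other 3 TG libraries than Dixon's 95% critical value for 4 samples allows, measured as its gap to the nearest library over the group's range. Its values were 6.69 CPM for Prss1, 1204 CPM for Try5, 69.2 CPM for Try10, 3385 CPM for Cpa1, 5424 CPM for Cpb1, 4552 CPM for Cel and 28.5 CPM for Rbpjl. Of 64 groups examined (the 31 genes tested and the summed acinar share, each by TG or WT), 7 passed this limit, and chance passes about 1 in 20. The genes are not independent, since most of them varied together across libraries. For the summed acinar share of gene counts the same measure was 0.825 for TG1 and 0.426 for WT4, both under the limit.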

How the results depend on the processing

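Over all genes, 4129 were called, and 2646 without both TG1 and WT4 (2508 of them shared with the 4129). Leaving out 1 library gave 2864 to 4404 calls, the acinar covariate 3154 and DESeq2 4599. DESeq2, run without the filter, moved the median log2 fold change of all its genes to 0.12. Of the acinar genes, 2 were called. The count was 1, Nr5a2, with limma-voom, with the replicate block, without both TG1 and WT4, and with a filter of 1 CPM in 4 libraries, which removes Prss1. It was 1 to 2 when 1 library was left out. Prss1 had an adjusted p of 0.177 in limma-voom and 0.057 with the replicate block. On the second exocrine list, 1 gene was called, 2 without a filter (Amy1 added) and 3 with the replicate block (Amy1 and Aqp12 added). The ratio of mean acinar shares was 2.32, and 1.29 to 2.87 when 1 library was left out, 1.32 between medians, 2.22 over all entries, 2.19 without insulin and mitochondrial genes and 2.30 without Pnlip. Without both TG1 and WT4, log2 fold changes turned negative for Prss2 (-0.13), Cela1 (-0.14), Cela2a (-0.21), Cela3b (-0.14), Ctrb1 (-0.032), Ctrc (-0.38), Ctrl (-0.23), Cpa1 (-0.12), Cpb1 (-0.090), Pnlip (-0.14), Pnliprp1 (-0.097), Pnliprp2 (-0.19), Clps (-0.10), Cel (-0.22), Pla2g1b (-0.22), Rnase1 (-0.11), Klk1 (-0.18), Sycn (-0.28), Zg16 (-0.024), Gp2 (-0.0039) and Rbpjl (-0.83), none of them called. Bhlha15 gave -0.0020 in DESeq2, -0.030 with upper-quartile scaling, -0.017 with acinar genes left out of the scaling, -0.0038 without a filter, and -0.15 to 0.12 when 1 library was left out. Rbpjl gave -0.45 to 1.08 when 1 library was left out. Where no value above shows the cause of a change, the cause was not tested.

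TG and WT libraries share replicate numbers. Between libraries of the same number, the correlations of deviations from the group means were -0.030, 0.081, 0.019 and 0.0079. TG2, WT2 and TG3 correlated best with their own number in the other group, and TG1, TG4, WT1, WT3 and WT4 did not. These values do not settle whether the libraries were paired. The replicate block gave 4673 calls over all genes, against 4129 without it. Depth limits Ptf1a, Cela3a and Prss1, which had few reads, and the spread between 4 libraries per group limits the enzyme genes, whose SEs were mostly near 0.9, but not Nr5a2 (SE 0.325) or Bhlha15 (SE 0.175).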
